A study of Mus musculus with 4 samples.

Results

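The transcripts of glycolysis and of the response to low oxygen were followed through immune and other cells in 4 mouse single-cell libraries. The set holds 37 genes of the 27998 in the deposited matrices, chosen by symbol: glucose and lactate transporters, glycolytic enzymes, the hypoxia-inducible factor Hif1a with 2 of its hydroxylases, and genes known as its targets. All 37 symbols were found. The libraries are labelled Ac, C, aC+C and IgG, 1 each; the labels do not spell out these names, nor the tumor or the agents, and give an age of 6 to 8 weeks for all mice under the genotype field. The sample titles name immune cells from tumors and the series title CD8+ T cells, whereas the remaining fields are about goblet cells, which make the mucus of the gut, taken from RedMUC298trTg mice. The goblet cell marker Muc2 had 2 UMIs in Ac, 3 in C, 4 in aC+C and 2 in IgG, against Ptprc, the leukocyte surface protein CD45, in 87.0% to 91.3% of barcodes, so the label of goblet cells went against the data. UMIs, unique molecular identifiers, count transcript molecules near their 3' ends. With 1 library in each group there is no replicate, no test was made, and library and group cannot be told apart. All intervals below are 95% intervals for counting error only.

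Glycolysis splits glucose into pyruvate, and lactate dehydrogenase turns pyruvate into lactate, which leaves the cell by monocarboxylate transporters. Hypoxia-inducible factor 1 alpha (HIF-1alpha) is marked for destruction by prolyl hydroxylases when oxygen is present, and when oxygen is scarce it binds DNA with a partner and raises many genes of glycolysis, of angiogenesis and of mitochondrial clearance. Activated T cells, macrophages in tumors and tumor cells are known for high glycolytic activity, and in T cells and macrophages HIF-1alpha also rises on activation without low oxygen.

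HIF binds a core of letters A or G followed by CGTG. The promoters of 4 members are shown so that those that differed from IgG can be read beside 1 that stayed close to it. Pgk1 differed most widely, and Ldha was inside the margin of 25% in all main gates but 1. Bnip3 and Ero1l differed in some cell classes and not in others. Each line holds the 250 bases before the RefSeq transcription start on build GRCm38.p6 (mm10), read 5' to 3' on the gene's strand, with ACGTG or its complement CACGT in capitals. RefSeq lists Ero1l as Ero1a. Ldha has 2 RefSeq start windows, of which the first is shown, and the other held 0 ACGTG. The windows lie at chrX:106186850-106187099 (plus strand), chr7:46845554-46845803 (plus), chr7:138909507-138909756 (minus) and chr14:45318573-45318822 (minus).
Pgk1: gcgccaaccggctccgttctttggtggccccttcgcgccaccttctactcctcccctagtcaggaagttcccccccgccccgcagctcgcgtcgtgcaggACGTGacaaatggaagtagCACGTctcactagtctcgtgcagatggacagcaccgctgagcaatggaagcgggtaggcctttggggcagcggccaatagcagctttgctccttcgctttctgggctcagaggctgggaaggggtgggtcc
Ldha: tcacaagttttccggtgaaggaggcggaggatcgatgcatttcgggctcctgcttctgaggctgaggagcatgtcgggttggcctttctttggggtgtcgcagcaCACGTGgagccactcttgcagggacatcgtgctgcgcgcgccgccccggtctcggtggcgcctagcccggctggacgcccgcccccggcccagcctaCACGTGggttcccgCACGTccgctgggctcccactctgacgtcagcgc
Bnip3: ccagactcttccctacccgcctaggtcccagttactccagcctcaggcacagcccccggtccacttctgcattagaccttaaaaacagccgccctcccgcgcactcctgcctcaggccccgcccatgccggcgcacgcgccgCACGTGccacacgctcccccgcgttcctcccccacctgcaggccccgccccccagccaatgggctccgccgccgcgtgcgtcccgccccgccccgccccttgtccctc
Ero1l: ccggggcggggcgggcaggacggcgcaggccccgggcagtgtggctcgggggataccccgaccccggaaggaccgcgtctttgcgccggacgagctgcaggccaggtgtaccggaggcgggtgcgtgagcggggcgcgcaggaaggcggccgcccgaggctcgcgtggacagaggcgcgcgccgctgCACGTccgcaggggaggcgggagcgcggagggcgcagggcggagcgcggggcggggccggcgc

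Pgk1 held 2 ACGTG sites, Ldha 3, Bnip3 1 and Ero1l 1 in these stretches. GCGTG, the other form of the core, is neither in capitals nor in these counts. CACGTG, which carries ACGTG on both strands and is also the letters of an E-box, was counted as 1 site, and 2 of the Ldha sites and the Bnip3 site have this form. Over windows of 250 bases before to 50 after the start, 34 of the 37 members were matched in RefSeq, and 26 of these had ACGTG in at least 1 window. ACGTG stood in 55.8% of the 52 member windows, against 19.6% of all 32851 windows of RefSeq genes. GCGTG, searched on both strands in the same way, stood in 57.7% of member windows and in 32.4% of all windows. Eno1 had ACGTG in 0 of 3 windows and GCGTG in all 3. The most GCGTG sites in 1 window were 0 for Pgk1, 2 for Ldha, 3 for Bnip3 and 2 for Ero1l. These windows reach 50 bases past the printed stretches. Bnip3 and Ero1l thus held more GCGTG than Pgk1, and the order of the genes by ACGTG does not hold for the whole core. Matches are letters and not shown sites of binding.

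Barcodes with at least 1000 UMIs, of which at most 10% came from mitochondrial genes, were kept: 4028 in Ac, 4210 in C, 4081 in aC+C and 3436 in IgG, with medians of 10492 to 11594.5 UMIs. They were sorted into 14 exclusive gates by UMIs of marker genes, and 72.8% to 86.5% of the kept barcodes fell in a gate. The 8 main gates had at least 100 barcodes in each library: non-cycling CD8 T cells (897 in Ac, 453 in C, 692 in aC+C and 773 in IgG), cycling CD8 T cells (139 to 271), regulatory T cells (156 to 301), conventional CD4 T cells (163 to 201), non-cycling NK cells (213 to 508), C1q-high macrophages (281 to 684), C1q-low monocytes or macrophages (222 to 641) and cells with decorin and collagen transcripts (112 to 245). This last gate, called Dcn/collagen below, also carried Hmga2 (168 to 241 CPM) and Tm4sf1 (659 to 1005 CPM), markers set for mesenchymal tumor cells, beside 2390 to 2955 CPM of Dcn, so it was given no cell type name. CPM is a gene's UMIs per 1000000 UMIs of the gate. The remaining gates, with fewer barcodes, were cycling NK cells, B cells, type 1 and type 2 conventional dendritic cells (cDC1 and cDC2), migratory dendritic cells and cells high in Hmga2 and Tm4sf1. Between libraries 2 to 7 kept barcodes were shared in sequence. Barcodes of 1 to 50 UMIs, which hold RNA free in the fluid, carried 3.58% to 4.99% of a library's UMIs, and their values stand beside the results as the level of free RNA. That level is a CPM within free RNA and not the amount that free RNA adds to a cell.

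Gapdh, the glyceraldehyde phosphate dehydrogenase of mid glycolysis, had the most UMIs of the 37 members in all 14 gates, counted as 3' tags and not per length. Among the main gates it was lowest in non-cycling NK cells in each library, at 1380.4 CPM in Ac, 1283 in C, 1338 in aC+C and 1303 in IgG. In the Dcn/collagen gate it had 3028 CPM in Ac, 2437 in C, 3026 in aC+C and 2467 in IgG, the highest of the main gates in Ac, aC+C and IgG, while in C that was C1q-high macrophages. The ranges of NK cells and the Dcn/collagen gate did not overlap. Gpi1, the isomerase of glucose phosphate, had 358 to 416 CPM in non-cycling CD8 T cells and 455 to 523 CPM in C1q-high macrophages.

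The members that separated cell classes included transporters, single isoenzymes, hypoxia targets and Hif1a, and also Pgam1 of the lower enzymes. Slc2a3, the glucose transporter GLUT3, had 46.3 CPM in Ac, 43.5 in C, 48.1 in aC+C and 43.5 in IgG in non-cycling CD8 T cells. In C1q-high macrophages it had 0.686 CPM in Ac, 1.05 in C, 1.24 in aC+C and 2.42 in IgG, under its level in free RNA (20.99, 19.5, 13.02 and 30.6 CPM in the same order). Slc2a1, the glucose transporter GLUT1, ran the other way, with 177 CPM in Ac, 133 in C, 147 in aC+C and 128 in IgG in C1q-low cells and 24.97 to 36.01 CPM in non-cycling CD8 T cells. The T and NK cell gates held transcripts of both transporters, while the macrophage gates held Slc2a1 and almost no Slc2a3.

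Among the upper enzymes, Hk2, the inducible hexokinase, had 101 CPM in Ac, 85.4 in C, 101 in aC+C and 115 in IgG in C1q-high macrophages and 13.5 CPM in Ac, 16.3 in C, 12.1 in aC+C and 14.8 in IgG in non-cycling CD8 T cells. Hk1, the hexokinase found in most tissues, was highest among main gates in regulatory T cells in Ac, C and IgG and in conventional CD4 T cells in aC+C (regulatory T cells 73.1 to 82.8 CPM over the 4 libraries) and lay at 29.9 to 37.1 CPM in C1q-high macrophages. Conventional CD4 T cells held more Hk2 than non-cycling CD8 T cells in all 4 libraries, at 30.5 to 42.7 CPM. The phosphofructokinase of platelets, Pfkp, had 278 to 367 CPM in cDC1, where barcodes were few, 163 to 186 in cycling CD8 T cells and 31.7 to 41.03 in the Dcn/collagen gate. The liver form Pfkl was at 72.4 to 87.8 CPM in C1q-high macrophages and 35.1 to 40.5 CPM in non-cycling CD8 T cells. The muscle form Pfkm reached 100 UMIs over a pair of libraries in the Dcn/collagen gate alone, at 11.8 CPM in Ac, 10.4 in C, 7.99 in aC+C and 11.3 in IgG. Aldoc, the brain-type aldolase, had 44.3 CPM in Ac, 39.9 in C, 40.4 in aC+C and 26.1 in IgG in C1q-high macrophages, 44.3 CPM in Ac, 38.5 in C, 29.6 in aC+C and 23.7 in IgG in regulatory T cells and 0.603 to 1.30 CPM in the Dcn/collagen gate. The common aldolase Aldoa spanned 359 to 523 CPM in the Dcn/collagen gate and 932 to 1125 CPM in regulatory T cells.

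The lower enzymes were found in every main gate. Tpi1 (triose phosphate isomerase), Pgam1 (phosphoglycerate mutase) and Pkm (pyruvate kinase) were each above non-cycling CD8 T cells in C1q-high macrophages in all 4 libraries; Pkm had 868 to 1126 CPM there and 525 to 614 CPM in non-cycling CD8 T cells, and Pgam1 596 to 678 CPM there and 253 to 285 CPM in non-cycling CD8 T cells. Ldha, the lactate dehydrogenase subunit that favours lactate, had 1094 CPM in Ac, 957 in C, 1255 in aC+C and 949 in IgG in cycling CD8 T cells, and 722 CPM in Ac, 691 in C, 888 in aC+C and 713 in IgG in non-cycling ones. Cycling cells were above non-cycling ones in each library. The lactate exporter Slc16a3 (MCT4) had 254 CPM in Ac, 191 in C, 234 in aC+C and 215 in IgG in C1q-low cells, 98.3 CPM in Ac, 79.8 in C, 91.2 in aC+C and 125 in IgG in regulatory T cells and 30.9 CPM in Ac, 21.7 in C, 30.2 in aC+C and 36.3 in IgG in non-cycling CD8 T cells. Slc16a1 (MCT1), which carries lactate both ways, was highest among main gates in the Dcn/collagen gate, at 44.5 CPM in Ac, 35.6 in C, 42.2 in aC+C and 53.9 in IgG, against 6.72 to 8.83 CPM in C1q-high macrophages. Pdk1, the kinase that closes the entry of pyruvate into mitochondria, lay between 13.9 and 41.8 CPM over the main gates.

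Hif1a itself was highest in the CD4 gates. It had 939.6 CPM in Ac, 805 in C, 749.6 in aC+C and 979 in IgG in conventional CD4 T cells, 871 CPM in Ac, 798 in C, 774 in aC+C and 813 in IgG in regulatory T cells, 263 CPM in Ac, 257 in C, 232 in aC+C and 253 in IgG in non-cycling CD8 T cells and 83.7 to 89.3 CPM in the Dcn/collagen gate. The ranges of both CD4 gates overlapped each other and lay above those of all other gates, C1q-low cells coming next at 418 to 496 CPM. Egln1 and Egln3 encode prolyl hydroxylases that mark HIF. Egln1 lay between 18.2 CPM in NK cells and 80.2 CPM in conventional CD4 T cells. Egln3 was at 79.4 CPM in Ac, 54.2 in C, 56.6 in aC+C and 62.1 in IgG in the Dcn/collagen gate, 19.6 to 24.3 CPM in regulatory T cells and 2.58 to 3.08 CPM in non-cycling CD8 T cells.

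Vegfa, the secreted growth factor of blood vessels, had 526 CPM in Ac, 306 in C, 338 in aC+C and 383 in IgG in C1q-low cells, 405 CPM in Ac, 266 in C, 383 in aC+C and 332 in IgG in C1q-high macrophages and 171 CPM in Ac, 124 in C, 139 in aC+C and 173 in IgG in non-cycling NK cells. In non-cycling CD8 T cells it had 8.10 CPM in Ac, 17.4 in C, 8.88 in aC+C and 16.1 in IgG, and in free RNA 204, 166, 217 and 146 CPM in the same order. NK cells exceeded CD8 T cells in each library, and CD8 T cells lay under the CPM within free RNA, which is not the amount that free RNA adds to a cell. Adm, the vasodilating peptide adrenomedullin, had at most 16 UMIs in any main gate and library except for 53 UMIs of IgG in the Dcn/collagen gate, of which 77.4% came from 1 barcode. The collagen prolyl hydroxylase subunits P4ha1 and P4ha2 were at 133 CPM in Ac, 87.7 in C, 139 in aC+C and 100.1 in IgG and at 19.3 CPM in Ac, 10.7 in C, 28.7 in aC+C and 17.1 in IgG in the Dcn/collagen gate. The range of P4ha1 in C1q-high macrophages, 98.1 to 113 CPM, lay inside this, and there P4ha2 had 2.90 to 7.56 CPM.

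Bnip3 and Bnip3l, receptors that send mitochondria to autophagy, differed in pattern. Bnip3 had 160.2 CPM in Ac, 109.7 in C, 142 in aC+C and 111 in IgG in C1q-high macrophages, 80.9 CPM in Ac, 72.4 in C, 71.4 in aC+C and 70.3 in IgG in regulatory T cells and 13.2 to 23.6 CPM in non-cycling CD8 T cells, while Bnip3l stayed within 77.6 and 228 CPM over all main gates. Ddit4 (REDD1), an inhibitor of mTORC1 signalling, had 244 CPM in Ac, 163 in C, 204 in aC+C and 159 in IgG in regulatory T cells and 57.96 CPM in Ac, 51.7 in C, 57.7 in aC+C and 51.1 in IgG in non-cycling CD8 T cells. Hilpda, a lipid droplet protein that inhibits lipolysis, was above 200 CPM in every library of the 5 main lymphocyte gates, with 349 CPM in Ac, 259.7 in C, 334 in aC+C and 299 in IgG in non-cycling CD8 T cells, and had 49.1 to 58.03 CPM in the Dcn/collagen gate. Ndrg1, a stress-regulated protein, and Mxi1, an antagonist of Myc, peaked in migratory dendritic cells, at 240.4 CPM in Ac, 222 in C, 325 in aC+C and 104 in IgG for Ndrg1 and 172 CPM in Ac, 122 in C, 170.4 in aC+C and 176 in IgG for Mxi1, in 25 to 56 barcodes a library. Mxi1 was lowest among main gates in non-cycling NK cells, at 6.06 CPM in Ac, 6.89 in C, 5.50 in aC+C and 6.45 in IgG. Higd1a, a protein of the respiratory chain, had 231 to 279.9 CPM in regulatory T cells and 83.6 to 164 CPM in the Dcn/collagen gate. Ero1l, the oxidase that forms disulfide bonds in the endoplasmic reticulum, Kdm3a, a histone demethylase, and Ankrd37, an ankyrin repeat protein, are given with the libraries' differences.

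**Figure D1:**
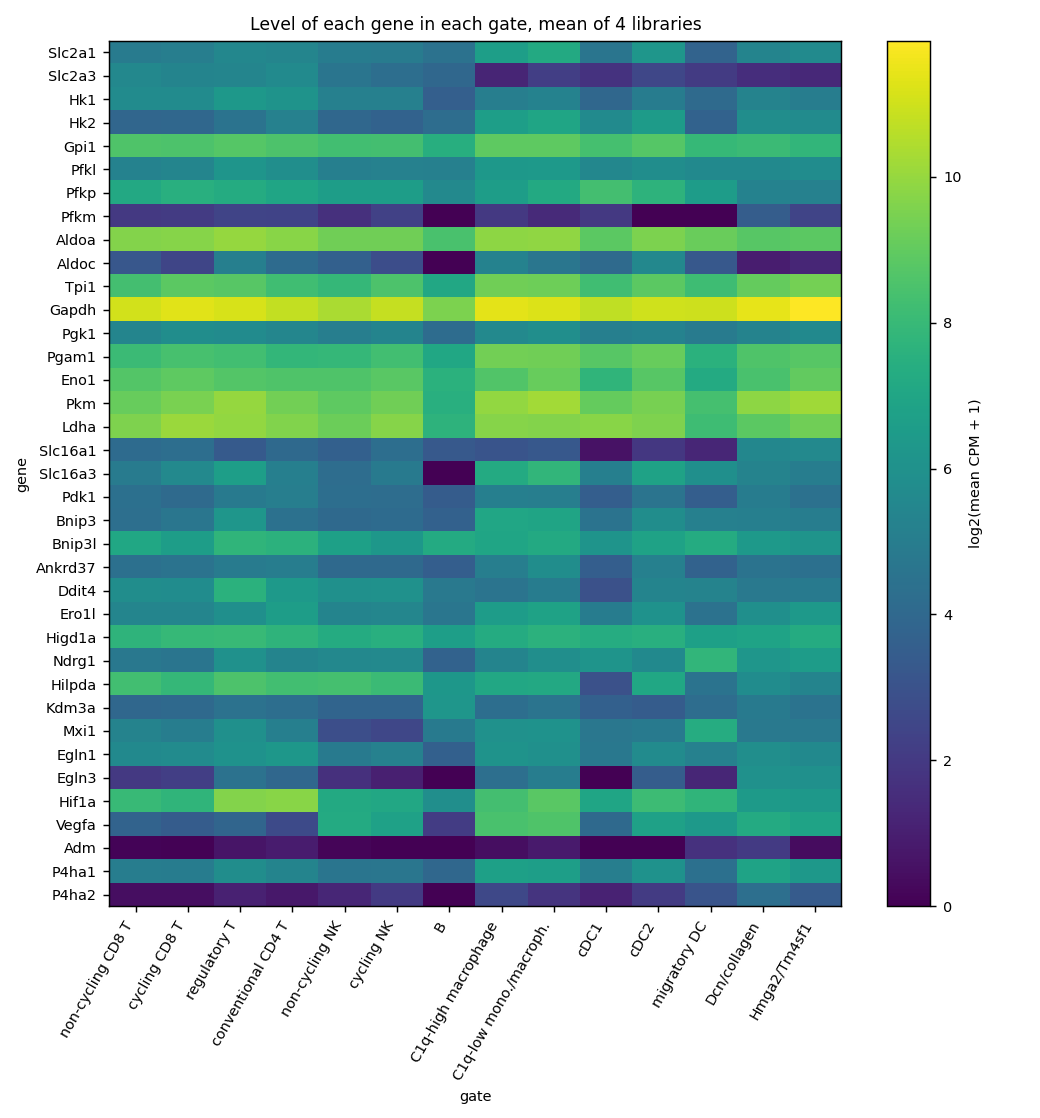
Colour shows the log2 of 1 plus the mean CPM over the 4 libraries for the 37 genes (rows) in the 14 gates (columns). Slc2a3 is dark in the macrophage, dendritic, Dcn/collagen and Hmga2/Tm4sf1 gates, Hif1a is brightest in the 2 CD4 gates, and Vegfa is bright in the macrophage, NK and Dcn/collagen gates but not in T cells.

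Pairs of gates were compared within each library, taking a member as different where the ratio of CPM was at least 2 in all 4 libraries, or at most 0.5 in all 4, among genes with at least 400 UMIs over both gates and all libraries. Regulatory T cells exceeded non-cycling CD8 T cells in 6 of 33 members, against 4.26% of all genes by the same rule: Aldoc, Slc16a3, Bnip3, Ddit4, Ndrg1 and Hif1a. They were lower in 0, against 2.02%. The lowest ratio of these over the libraries was 2.20, for Ndrg1, and the highest 5.50, for Bnip3. The median ratio was 1.44 over members and 1.09 over all genes tested. Only the CD8 T and NK gates were split by cycling, with a list of Mki67, Top2a, Birc5, Ube2c, Cdk1 and Tpx2. This cycling list had 636 CPM in Ac, 627 in C, 859 in aC+C and 1085 in IgG in regulatory T cells. It had 237 to 365 CPM in conventional CD4 T cells and 103 to 142 in non-cycling CD8 T cells. The part of cycling cells in these ratios was not tested. Conventional CD4 T cells exceeded non-cycling CD8 T cells in 2 of 32 members, Hk2 and Hif1a, against 2.57% of all genes, and were lower in 0, against 1.55%. In cycling over non-cycling CD8 T cells 0 of 32 members passed in either direction, against 3.57% of all genes higher and 0.154% lower. Non-cycling NK cells were higher than non-cycling CD8 T cells in Vegfa (ratios 7.09 to 21.1) and lower in Mxi1 (0.133 to 0.212), 1 of 33 members each, against 2.06% of all genes higher and 3.48% lower.

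C1q-high macrophages exceeded non-cycling CD8 T cells in 9 of 34 members, against 16.0% of all genes: Slc2a1, Hk2, Aldoc, Pgam1, Slc16a3, Bnip3, Egln3, Vegfa and P4ha1. Slc2a3 was the only member that passed in the lower direction, against 9.19% of all genes. The share of members higher was nearer to the share of all genes than in regulatory T cells, though the median ratio over members, 1.47, was above that of all genes, 0.964. C1q-low cells against C1q-high macrophages gave 0 of 32 members in either direction, against 1.51% of all genes higher and 2.43% lower. The Dcn/collagen gate over C1q-high macrophages gave 4 of 35 members higher (Pfkm, Slc16a1, Egln3 and P4ha2) and 7 lower (Slc2a1, Pfkp, Aldoc, Slc16a3, Bnip3, Vegfa and Hif1a), against 19.2% and 14.1% of all genes. The median ratio there was 0.674 over members and 1.20 over all genes.

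Against IgG, Pgk1 alone of the members was at least 25% higher in every main gate where it could be measured, in both aC+C and C. The margin used was at least 25% above IgG or at least 20% below it, which is the same step on a log scale. A gate counted where both libraries together had at least 100 UMIs of the gene, and at least 4 such gates were required. Pgk1, phosphoglycerate kinase, makes the first ATP of glycolysis. In non-cycling CD8 T cells it had 30.8 CPM in Ac, 48.8 in C, 61.3 in aC+C and 23.1 in IgG, in C1q-high macrophages 34.6 CPM in Ac, 56.5 in C, 70.8 in aC+C and 25.8 in IgG, and in the Dcn/collagen gate 31.3 CPM in Ac, 41.97 in C, 61.9 in aC+C and 18.5 in IgG. aC+C was highest and IgG lowest in each of these.

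In aC+C the ratio of Pgk1 to IgG lay between 1.79 in regulatory T cells and 3.35 (interval 2.69 to 4.20) in the Dcn/collagen gate over 8 main gates, and was 2.65 (interval 2.27 to 3.11) in non-cycling CD8 T cells. In C it lay between 1.67 in regulatory T cells and 2.72 in C1q-low cells over 7 gates. The rule met 1 of 32 members in aC+C, against 0.182% of all genes, and 1 of 33 in C, against 0.227%. It met 0 of 33 in Ac, against 0.0833% of all genes: Pgk1 was past the margin in 6 of 7 gates (1.33 to 1.72) but at 0.987 (interval 0.693 to 1.41) in regulatory T cells. In the lower direction 0 members met the rule in any library, against 0.0972% of all genes for Ac, 0.283% for C and 0.463% for aC+C. The rule for choosing the genes names Pgk1, so its shift is a description. In free RNA Pgk1 also differed, with ratios to IgG of 1.11 for Ac, 1.96 for C and 1.94 for aC+C.

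Eno1, an enolase, the enzyme before pyruvate kinase, came nearest to the rule and was chosen after its values were seen. It was at least 25% higher in 7 of 8 main gates in aC+C and in 7 of 8 in C. Its level was 424 CPM in Ac, 413 in C, 524 in aC+C and 291 in IgG in non-cycling CD8 T cells and 553 CPM in Ac, 588 in C, 545 in aC+C and 493 in IgG in C1q-low cells. IgG was lowest in both, and the ratio of aC+C to IgG was 1.80 (interval 1.72 to 1.89) in the first and 1.11 (interval 1.03 to 1.19) in the second. In free RNA its ratios were 1.35 for Ac, 1.36 for C and 1.60 for aC+C. Ldha, the lactate dehydrogenase subunit, stayed inside the margin in all 8 gates in Ac and in C, and in 7 of 8 in aC+C, where cycling CD8 T cells had 1.32.

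**Figure D2:**
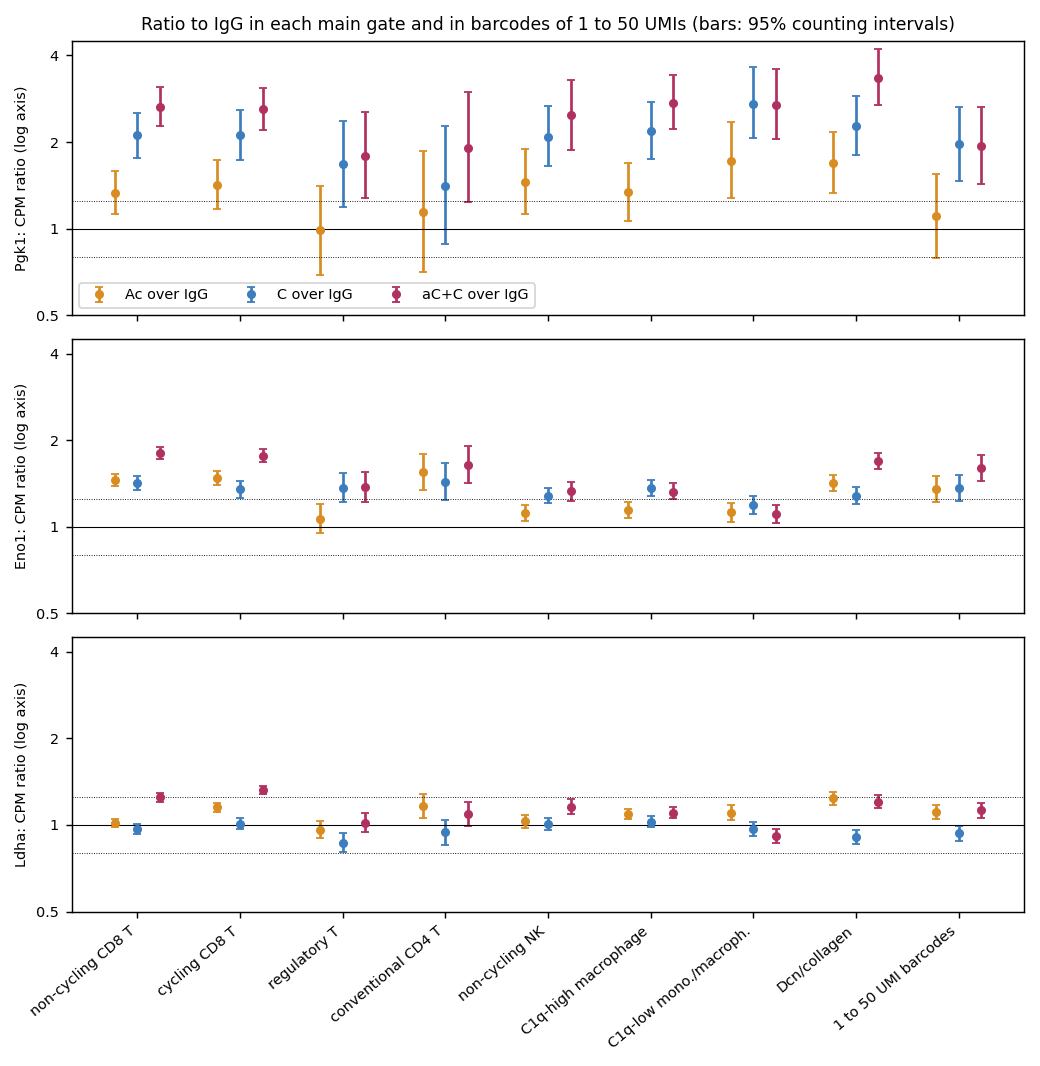
Points give the CPM ratio of Ac, C and aC+C over IgG on a log axis for Pgk1, Eno1 and Ldha in each main gate and in barcodes of 1 to 50 UMIs, with bars for 95% counting intervals and dotted lines 25% above and 20% below 1. Pgk1 in C and aC+C lies above the upper dotted line in all gates, Eno1 in C and aC+C in 7 of 8, and Ldha lies between the dotted lines in all gates except cycling CD8 T cells of aC+C, at 1.32.

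Pgk1 and Eno1 have near-identical copies in the genome, and a read that falls on both may be given to either or to none. In the last 500 bases of the longest coding GENCODE M21 transcript, where 3' reads fall, 53.3% of 90-base stretches of Eno1, 79.8% of those of Gapdh and 0% of those of Pgk1 also stood in another listed transcript, and 0% in the other members. With stretches of 50 bases the shares were 75.2% for Eno1, 90.5% for Gapdh, 27.7% for Bnip3 and 7.32% for Pgk1. Over its whole transcript 67.2% of the 90-base stretches of Pgk1 were shared. Of the genes past the margin in every main gate, at least 10% of 90-base stretches were shared in 33.3% of the 6 higher in Ac, in 56.2% of the 16 higher in C, and in 61.5% of the 13 higher in aC+C. For those lower, Ac had it in 14.3% of its 7 genes, C in 10 of its 20 and aC+C in 12.1% of its 33, against 3.59% of the 7383 genes measured. The retrocopy Pgk1-rs7 had 64 UMIs in Ac, 76 in C, 112 in aC+C and 48 in IgG over all kept barcodes, against 2147, 3571, 4615 and 1396 for Pgk1. Eno1b had 187, 298, 323 and 144 UMIs, against 25597, 29658, 34816 and 17761 for Eno1. A part of read assignment in the ratios of Pgk1 and Eno1 was not tested.

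With the looser rule of a ratio on the same side of 1 in every measured main gate, set after the values were seen, aC+C had 6 of 32 members above 1 (Gpi1, Gapdh, Pgk1, Eno1, Pkm and Higd1a), against 3.38% of all genes, and 2 below 1 (Ankrd37 and Egln1), against 12.5%. Ac had 7 of 33 above 1 (Aldoa, Aldoc, Gapdh, Eno1, Pkm, Bnip3 and Ddit4), against 2.51%, and 0 below, against 4.14%. C had 2 of 33 above 1 (Pgk1 and Eno1), against 4.79%, and 5 below (Slc16a3, Ankrd37, Higd1a, P4ha1 and Hilpda), against 6.33%. All 3 contrasts share the IgG library. Gapdh was 1.06 to 1.246 in Ac and 1.01 to 1.26 in aC+C, Pkm at most 1.20 and 1.30, and Gpi1 in aC+C at most 1.22. In Ac Aldoa reached 1.43, Eno1 1.55 and Aldoc 1.87. Bnip3 in Ac was 1.15 to 2.40 and Ddit4 in Ac 1.13 to 1.62. The median of all genes in a gate lay within 0.1 of 0 on the log2 scale, except for aC+C in non-cycling CD8 T cells, where it was -0.12.

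Ddit4 in Ac was at least 25% higher in 6 of 8 gates, and its level in C1q-low cells was 44.96 CPM in Ac, 25.5 in C, 24.5 in aC+C and 27.8 in IgG. Ankrd37 was lower in C in all 6 measured gates, with ratios of 0.529 to 0.814, and past the margin in 5 of them. In C1q-low cells Ankrd37 had 45.2 CPM in Ac, 42.5 in C, 53.2 in aC+C and 80.2 in IgG, with IgG the highest. Kdm3a was lower in aC+C in 5 of 6 gates, most in non-cycling NK cells, with 15.05 CPM in Ac, 16.3 in C, 5.92 in aC+C and 15.4 in IgG from 82 UMIs in Ac, 97 in C, 14 in aC+C and 86 in IgG. All 3 genes were chosen after their values were seen.

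By gate, the Dcn/collagen cells of aC+C and Ac held the most members past 1.5-fold. In aC+C 9 of 34 measured members were higher there, against 2.25% of all genes, and 0 lower, against 6.04%, and the median ratio was 1.18 over members and 0.947 over all genes. In Ac 7 of 34 were higher, against 1.31%, and 0 lower, against 2.58%, with medians of 1.23 and 0.989. In C 1 of 34 was higher, against 2.04%, and 2 lower, against 2.54%. Median UMIs per barcode of the Dcn/collagen gate were 39192 in Ac, 33975 in C, 47961 in aC+C and 37986 in IgG, and their part in these counts was not tested.

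The 9 members higher in the Dcn/collagen cells of aC+C were Pgk1, Eno1, Ero1l, Ndrg1, Higd1a, Hk2, P4ha2, Bnip3 and Slc16a3. Ero1l had 71.4 CPM in Ac, 41.5 in C, 88.1 in aC+C and 38.4 in IgG, Higd1a 131 CPM in Ac, 83.6 in C, 164 in aC+C and 89.6 in IgG, and Hk2 64.6 CPM in Ac, 34.1 in C, 76.7 in aC+C and 44.2 in IgG. Ac and aC+C were above C and IgG in these 3 genes. The summed mesenchymal markers of the gate were likewise higher in Ac and aC+C, with 1759.7 CPM in Ac, 1442 in C, 1917 in aC+C and 1581 in IgG, and so was Tm4sf1, with 916 CPM in Ac, 659 in C, 1005 in aC+C and 769.8 in IgG. The cycling list was also higher in Ac and aC+C, with 1495 CPM in Ac, 884 in C, 1359 in aC+C and 1270 in IgG. The summed collagen and Dcn markers were highest in IgG, with 5662 CPM in Ac, 6262 in C, 5308 in aC+C and 8674 in IgG, and the part of these markers in the members' differences was not tested. Ndrg1 followed the same order with 86.8 CPM in Ac, 53.5 in C, 103 in aC+C and 52.6 in IgG. In free RNA the ratios of aC+C to IgG were 1.35 for Ero1l, 1.04 for Higd1a, 1.74 for Hk2 and 1.87 for Ndrg1.

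In the T cells of aC+C the members past 1.5-fold were Pgk1 and a few others. Non-cycling CD8 T cells had 2 of 33 higher, Pgk1 and Eno1, against 1.04% of all genes, and 2 lower, Vegfa and Ndrg1, against 8.04%. Cycling CD8 T cells added Bnip3, with 3 of 32 higher against 1.31%, and had Vegfa and Kdm3a lower, 2 of 32 against 7.0%. Regulatory T cells had 1 of 26 higher, Pgk1, against 2.19%, and 1 lower, Ndrg1, against 4.7%. In these gates the lower shares of members stood under, but close to, those of all genes. Conventional CD4 T cells of aC+C had 3 of 21 higher, Hk1, Pgk1 and Eno1, against 1.91%, and 2 lower, Ero1l and Ndrg1, against 6.99%. For a migratory dendritic list, Ccr7, Fscn1, Ccl22 and Cacnb3 were summed. In non-cycling CD8 T cells it had 110 CPM in Ac, 310 in C, 102 in aC+C and 311 in IgG. In conventional CD4 T cells it had 235 CPM in Ac, 192 in C, 237 in aC+C and 424 in IgG. The part of dendritic markers in the differences of T cell gates was not tested. Non-cycling NK cells had 1 of 30 higher, Pgk1, against 1.62%, and 3 lower, Slc16a3, Egln1 and Kdm3a, against 2.58%. Among myeloid cells, C1q-high macrophages had 3 of 33 higher, Aldoc, Pgk1 and Hilpda, against 3.65%, and 0 lower, against 3.7%. C1q-low cells had 1 of 32 higher, Pgk1, against 3.77%, and 2 lower, Pdk1 and Ankrd37, against 6.04%. In this gate the neutrophil list (S100a8, S100a9, Csf3r and Cxcr2) had 167 CPM in Ac, 879 in C, 1276 in aC+C and 132 in IgG. The part of these markers in the members' differences was not tested.

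After the Dcn/collagen gate, C1q-low cells were the gate of Ac with the most members past 1.5-fold. There 5 of 32 were higher, Pgk1, Egln3, Ddit4, Ero1l and Hilpda, against 2.64% of all genes, and 1 lower, Ankrd37, against 3.33%. Other markers of this gate also differed, and their part was not tested: the inflammatory list (Il1b, Cxcl2 and Cxcl3) had 6903 CPM in Ac, 4969 in C, 7168 in aC+C and 4004 in IgG, the NK list 10.9 CPM in Ac, 185 in C, 5.04 in aC+C and 228 in IgG, and the cycling list 24.6 CPM in Ac, 36.4 in C, 39.1 in aC+C and 139 in IgG. C1q-high macrophages had 1 of 33 higher, Aldoc, against 2.69%, and 0 lower, against 2.46%. NK cells of Ac had 0 of 32 in either direction, against 0.62% higher and 0.562% lower. Each T cell gate of Ac held fewer members past 1.5-fold than C1q-low cells, and the part of the dendritic markers given above was not tested. Non-cycling CD8 T cells had 0 of 33 higher, against 1.14%, and 3 lower, Slc16a1, Vegfa and Ndrg1, against 5.32%. Cycling CD8 T cells had 1 of 32 higher, Bnip3, against 1.18%, and 1 lower, Vegfa, against 2.96%. Regulatory T cells had 2 of 29 higher, Aldoc and Ddit4, against 2.55%, and 1 lower, Ndrg1, against 3.47%. Ddit4 was also among the higher members of conventional CD4 T cells, 2 of 23 with Eno1, against 2.02%, where Ero1l and Ndrg1 were lower, against 3.14%.

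In C, Pgk1 was the higher member of 7 gates and Ankrd37 the lower member found most often. Non-cycling CD8 T cells had 1 of 33 higher, Pgk1, against 1.4% of all genes, and 2 lower, Slc16a3 and Ankrd37, against 2.23%. Cycling CD8 T cells had 1 of 32 higher, Pgk1, against 1.47%, and 3 lower, Ankrd37, Ndrg1 and Mxi1, against 1.59%. Regulatory T cells had 1 of 26 higher, Pgk1, against 1.48%, and 1 lower, Slc16a3, against 3.59%. Ero1l alone, 1 of 19, was lower in conventional CD4 T cells, against 4.27%, with 0 higher, against 1.63%. NK cells had 1 of 32 higher, Pgk1, against 1.54%, and 2 lower, Ankrd37 and Ndrg1, against 1.03%. Aldoc joined Pgk1 in C1q-high macrophages. C1q-high macrophages had 2 of 33 higher, Aldoc and Pgk1, against 2.35%, and 1 lower, Ddit4, against 2.99%. C1q-low cells had 1 of 32 higher, Pgk1, against 1.77%, and 2 lower, Hk1 and Ankrd37, against 2.49%. The neutrophil list of this gate, given above, was also higher in C than in IgG, and its part was not tested.

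**Figure D3:**
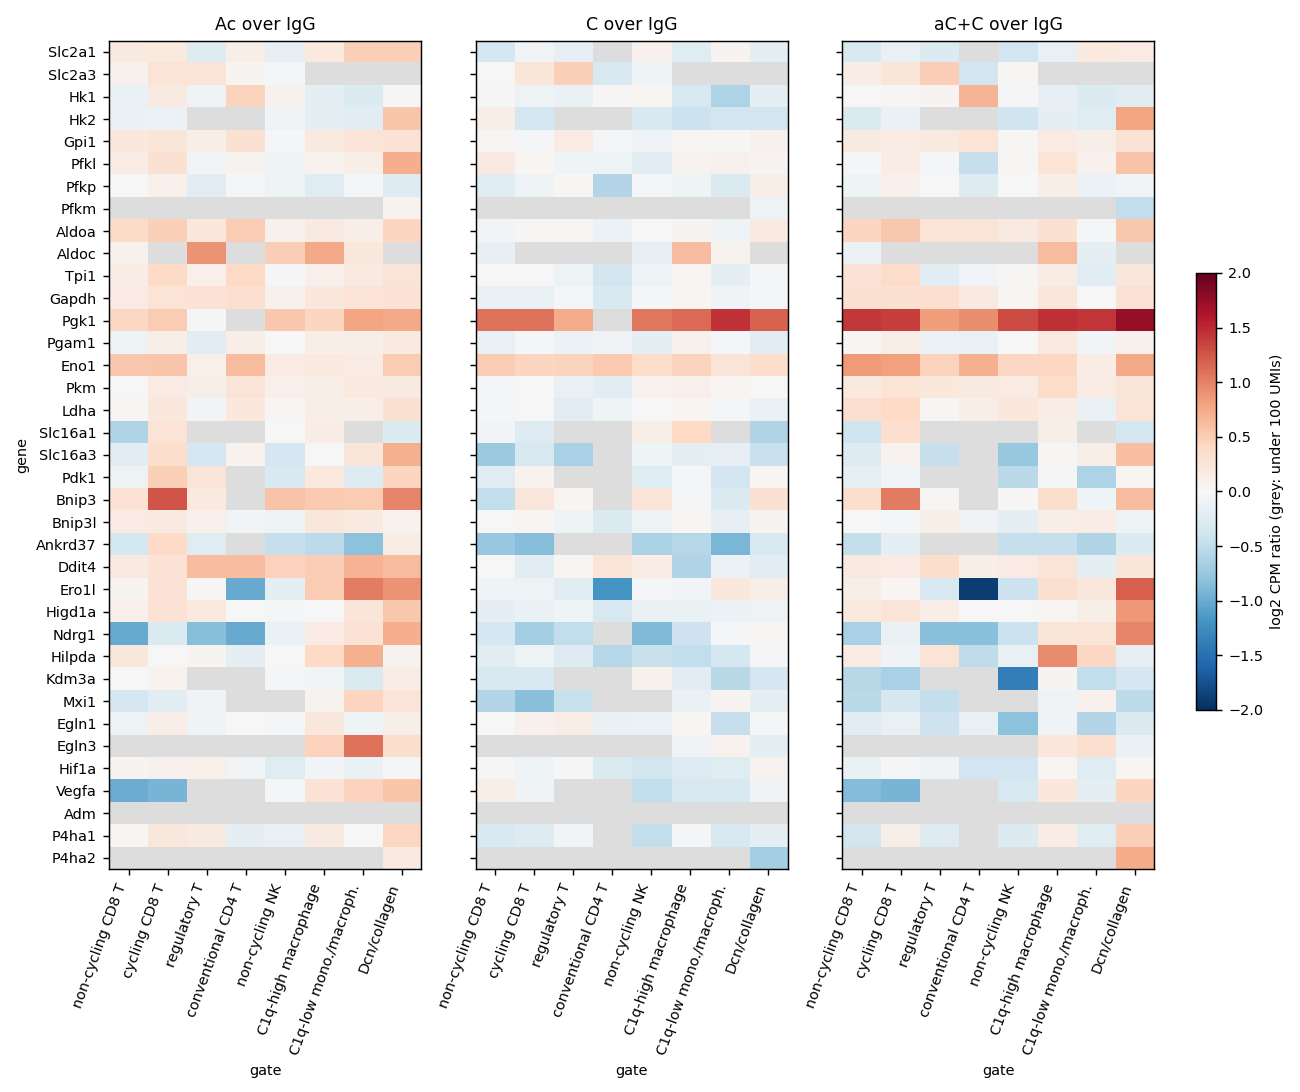
Colour gives the log2 CPM ratio of Ac, C and aC+C over IgG (panels, left to right) for the 37 genes (rows) in the 8 main gates (columns), and grey marks pairs with under 100 UMIs. Pgk1 is red across C and aC+C, and the Dcn/collagen column of Ac and aC+C holds many red cells.

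Changes bound to a class were those past 1.5-fold in a main gate, with at least as many of the other measured gates inside the 25% margin as past it. In the higher direction 8 of 34 members had such a gate in aC+C, against 5.98% of all genes, 7 of 34 in Ac, against 5.56%, and 1 of 34 in C, against 5.85%. In the lower direction there were 5 in aC+C, against 16.0%, 3 in Ac, against 10.4%, and 6 in C, against 8.06%. The 4 largest in each direction follow, by role.

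Of the enzymes, Aldoc met this rule in the higher direction, in Ac only at its limit: it was above 1 in all 5 gates measured and past the margin in 3 of them. In C1q-high macrophages, with the levels given above, its ratio to IgG was 1.70 (interval 1.36 to 2.14) in Ac and 1.53 (interval 1.22 to 1.93) in C. In regulatory T cells it was 1.87 (interval 1.26 to 2.85) in Ac, from 92 UMIs against 35, and 1.32 with the mean of single barcodes. In C1q-high macrophages of C the ratio was 1.49 with a higher minimum of UMIs, set at 10% of the 99th percentile of deep barcodes, and also 1.49 without barcodes above 40000 UMIs. Aldoc in free RNA had a ratio of 2.04 in Ac and 1.19 in C. Of the transporters, Slc16a3 in C was below 1 in all 7 gates measured and past the margin in 4. It was lower in non-cycling CD8 T cells, at 0.598 (interval 0.480 to 0.740), and in regulatory T cells, at 0.637 (interval 0.502 to 0.806), which became 0.731 with the higher minimum of UMIs. IgG was the highest library for Slc16a3 in both gates, and in free RNA its ratio in C was 1.16.

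Of the HIF hydroxylases, Egln1 was lower in non-cycling NK cells of aC+C, with 31.6 CPM in Ac, 29.8 in C, 18.2 in aC+C and 32.2 in IgG and a ratio of 0.564 (interval 0.395 to 0.791) from 43 UMIs against 180. The other 3 libraries lay close together. Its ratio was below 1 in all 8 main gates of aC+C, from 0.564 to 0.948. Of the secreted factors, Vegfa was lower in aC+C in non-cycling CD8 T cells, at 0.551 (interval 0.410 to 0.733), and in cycling CD8 T cells, with 7.06 CPM in Ac, 12.8 in C, 7.11 in aC+C and 13.5 in IgG and a ratio of 0.527 (interval 0.358 to 0.767), which turned to 1.255 without barcodes above 40000 UMIs. Removing 5% of each gate's UMIs with the profile of free RNA left 0 Vegfa in these gates of aC+C, and at levels this low the cells' own transcripts cannot be told from free RNA.

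Bnip3 was higher in cycling CD8 T cells of aC+C, with 35.5 CPM in Ac, 17.3 in C, 30.3 in aC+C and 14.8 in IgG and a ratio of 2.05 (interval 1.59 to 2.66). Ac was higher still, at 2.40 (interval 1.85 to 3.12), but in Ac Bnip3 was past the margin in 5 of 7 gates and so not bound to a class. In aC+C Bnip3 was past the margin in 4 of 7 gates and met the rule only at its limit. In free RNA the ratios of Bnip3 were 1.80 in aC+C and 2.05 in Ac. In non-cycling CD8 T cells Bnip3 had 22.6 CPM in Ac, 13.2 in C, 23.6 in aC+C and 18.4 in IgG. Mxi1 was lower in cycling CD8 T cells of C, with 33.95 CPM in Ac, 22.2 in C, 31.6 in aC+C and 39.8 in IgG and a ratio of 0.558 (interval 0.423 to 0.728).

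Hilpda was higher in C1q-high macrophages of aC+C, with 149 CPM in Ac, 79.9 in C, 217 in aC+C and 112 in IgG and a ratio of 1.93 (interval 1.73 to 2.14). aC+C stood above the other libraries there, and C lay below IgG, while in non-cycling NK cells the ratio in aC+C was 0.906 and in free RNA 0.897. Markers of the C1q-high gate also differed, and their part was not tested. The inflammatory list had 4914 CPM in Ac, 3100 in C, 4872 in aC+C and 3521 in IgG. A monocyte list (Ly6c2, Chil3, Hp, Plac8 and Ccr2) had 1109 CPM in Ac, 1365 in C, 1568 in aC+C and 1906 in IgG. The NK list had 7.06 CPM in Ac, 28.6 in C, 3.54 in aC+C and 83.4 in IgG. Higd1a in the Dcn/collagen gate of aC+C had a ratio of 1.83 (interval 1.65 to 2.03) and stayed inside the margin in all 7 other gates.

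Ero1l differed between gates in direction. It was higher in the Dcn/collagen gate of aC+C, at 2.29 (interval 1.97 to 2.69), and of Ac, at 1.86 (interval 1.58 to 2.20), and in C1q-low cells of Ac, where it had 171 CPM in Ac, 97.6 in C, 99.2 in aC+C and 84.4 in IgG and a ratio of 2.03 (interval 1.72 to 2.41). It was lower in conventional CD4 T cells of all 3 libraries, with 86.6 CPM in Ac, 76.6 in C, 46.96 in aC+C and 175 in IgG, and ratios of 0.495 for Ac, 0.438 for C and 0.269 for aC+C. In that gate 54.7% of the UMIs of IgG and 29.5% of those of C came from 1 barcode each, and without the barcode with the most UMIs of Ero1l in each library the ratio was 1.04 for Ac, 0.678 for C and 0.523 for aC+C. Intervals for counting error leave out such clustering of UMIs in a cell.

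Ndrg1 was lower in 3 of the 4 T cell gates of Ac, and in cycling CD8 T cells its ratio was 0.816 (interval 0.641 to 1.04), inside the margin. It had 17.7 CPM in Ac, 27.9 in C, 22.8 in aC+C and 35.6 in IgG in non-cycling CD8 T cells, a ratio of 0.499 (interval 0.414 to 0.599) in Ac, and 49.6 CPM in Ac, 63.1 in C, 50.1 in aC+C and 89.3 in IgG in regulatory T cells, a ratio of 0.556 (interval 0.425 to 0.725). In conventional CD4 T cells it had 31.3 CPM in Ac, 27.9 in C, 35.004 in aC+C and 62.8 in IgG, a ratio of 0.498 (interval 0.326 to 0.752) in Ac, which became 0.731 with the higher minimum of UMIs. IgG was the highest library in these 3 gates, whereas in the Dcn/collagen gate Ac and aC+C were. In the 3 T cell gates the migratory dendritic list was also highest in IgG, and its part was not tested. In free RNA the ratio of Ndrg1 in Ac was 0.999.

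**Figure D4:**
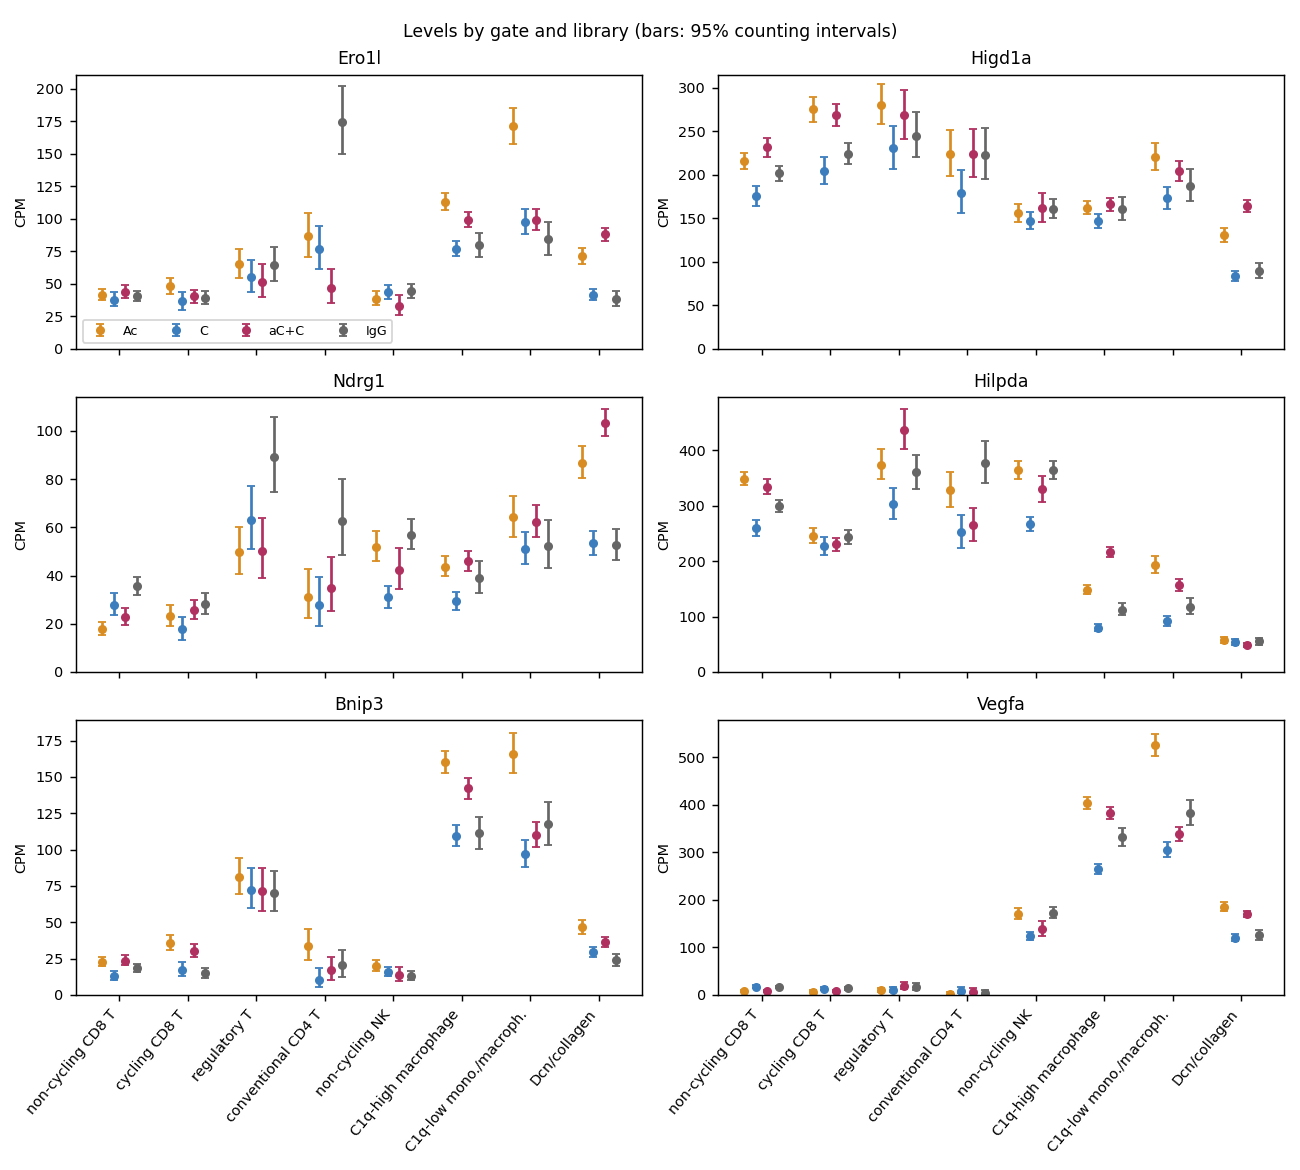
Points give CPM in Ac, C, aC+C and IgG with 95% counting intervals in the 8 main gates, for Ero1l, Higd1a, Ndrg1, Hilpda, Bnip3 and Vegfa. Ero1l of IgG stands alone in conventional CD4 T cells, Hilpda of aC+C stands apart in C1q-high macrophages, and Ac and aC+C lie above C and IgG for Ero1l, Higd1a and Ndrg1 in the Dcn/collagen gate.

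Of the 37 members, 19 to 34 had at least 100 UMIs over the 2 libraries of a contrast in a main gate. Adm reached this in no main gate, Pfkm and P4ha2 in the Dcn/collagen gate alone, and Egln3 in 3 gates. Bnip3l stayed inside the margin in all 8 gates of each contrast, with ratios of 0.818 to 1.17, and Pgam1 likewise, with 0.854 to 1.14.

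A further 65 genes of glucose and pyruvate metabolism and of the hypoxia response, such as Pfkfb3, Ldhb, Epas1, Vhl, Plin2 and Mif, were all in the files, and 13 to 42 of them were measured in a main gate. In aC+C 0 of 40 were past 1.5-fold higher and 7 lower in non-cycling CD8 T cells, against 1.04% and 8.04% of all genes. In the Dcn/collagen gate of aC+C 1 of 42 was higher and 4 lower, against 2.25% and 6.04% of all genes, and the median ratio was 0.972 over these genes. In the same gate of Ac 0 of 41 were higher and 1 lower, against 1.31% and 2.58%, with a median of 1.06. In C1q-high macrophages of aC+C 4 of 40 were higher and 3 lower, against 3.65% and 3.7% of all genes, and in C1q-low cells of aC+C 4 of 34 were higher and 1 lower, against 3.77% and 6.04%.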

How the data were processed

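Single-cell RNA of 4 mouse libraries, 1 each of Ac, C, aC+C and IgG, was analysed from the deposited matrices, whose values are raw UMI counts per gene and barcode. The authors made these counts with Cell Ranger 2.1.1 on mm10 per the submitters' processing notes; the file headers name software version 3.0.2. The deposited gene lists hold 27998 genes, and the deposited barcode lists, whose entries are other text, hold all 6794880 possible barcodes, so no cells had been called. Total counts were 65973242 in Ac, 75665201 in C, 75067320 in aC+C and 61519049 in IgG.

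Barcodes of at least 1000 UMIs with at most 10% mitochondrial UMIs were kept. Gates used marker UMIs per 10000: at least 8 of Cd3d, Cd3e and Cd3g for T cells, split by Cd8a and Cd8b1 (at least 3, with no Cd4 or Foxp3), Foxp3 or Cd4; at least 5 of the NK list; at least 20 of the myeloid list, split at 30 of C1qa, C1qb and C1qc; at least 15 of Dcn, Col1a1, Col3a1, Col1a2 and Pdgfra; and at least 6 of the cycling list. These thresholds were set after the marker distributions were seen, and barcodes that met more than 1 gate were left out. This does not remove all doublets. The myeloid gates had no maximum for the NK list, so a doublet of an NK and a myeloid cell could stay in them. Likewise the T cell gates had no maximum for the NK and dendritic lists. UMIs were summed per gate and library and scaled to CPM. Levels have exact Poisson intervals and ratios exact conditional binomial intervals, both 95% and for counting error only, since UMIs of 1 cell are not independent. Python 3.11.15, numpy 2.4.6, scipy 1.17.1, pandas 2.3.3 and, for Scrublet, scanpy 1.11.5 were used. The computation of the ratio intervals was checked on simulated counts drawn independently. Such counts leave out the clustering of UMIs in a cell, so the coverage of the intervals in these data was not tested.

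The members, the lists and the rules were chosen with earlier results of these data known. Named in full were Pgk1, members at least 25% above or 20% below IgG in every main gate, the 4 largest class-bound members in each contrast and direction, and the member with the most UMIs in each gate.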

Additional observations from a re-analysis of the deposited data

Results flagged for a closer look

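Among the named genes, 3 stood above IgG by more than 1.5-fold in 1 gate and as far below it in another of the same library, with counting intervals apart. Ero1l in Ac had a ratio of 2.03 in C1q-low cells and 0.495 in conventional CD4 T cells, and in aC+C 2.29 in the Dcn/collagen gate and 0.269 in conventional CD4 T cells. Ndrg1 had 1.65 in Ac and 1.96 in aC+C in the Dcn/collagen gate, against 0.498 in Ac and 0.558 in aC+C in conventional CD4 T cells. Slc16a3, the lactate exporter, had 1.52 in the Dcn/collagen gate and 0.591 in non-cycling NK cells of aC+C. With 1 library a group these differences between gates were not tested. The Ero1l ratios below 1 given here share the IgG cells of conventional CD4 T, in which 54.7% of Ero1l UMIs came from 1 barcode.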

How the results depend on the processing

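Alternatives changed the minimum of UMIs, the mitochondrial maximum, the scaling, the weight of each barcode, free RNA, the gates, doublets, deep barcodes and the fold. Pgk1 was the only member past the 25% margin in every main gate in C and in aC+C under all of them except the fold of 1.1, given below. In Ac the count became 1, Pgk1, with a minimum at 10% of the 99th percentile of deep barcodes. In C the count of lower members became 1, Ankrd37, with a mitochondrial maximum of 5%, with the mean of single barcodes and without barcodes above 40000 UMIs. A fold of 1.1 gave 2 members higher in Ac (Bnip3 and Ddit4), against 0.361% of all genes, 2 in C (Pgk1 and Eno1), against 0.835%, and 3 in aC+C (Pgk1, Eno1 and Pkm), against 0.673%. It gave 1 lower, Ankrd37, in C, against 1.15%, and in aC+C, against 3.13%. Single ratios of Pgk1 ran over alternatives from 0.842 to 1.94 in Ac, 1.24 to 3.01 in C and 1.67 to 3.61 in aC+C. Of 252 values of the class-bound results under alternatives, 13 moved beyond their interval and 2 turned direction: Vegfa in cycling CD8 T cells of aC+C was 1.255 without barcodes above 40000 UMIs, and Ero1l in conventional CD4 T cells of Ac was 1.04 without the barcode with the most of its UMIs, an alternative chosen after seeing the data. Another 5 were inside 1.5-fold under at least 1 alternative: in Ac Aldoc in regulatory T cells, as low as 1.32, and Ndrg1 in conventional CD4 T cells, as high as 0.731; in C Aldoc in C1q-high macrophages, as low as 1.49, Slc16a3 in regulatory T cells, as high as 0.731, and Ero1l in conventional CD4 T cells, as high as 0.678. The cause was not tested for these or for Vegfa. No paired analysis was possible because each group has 1 library. Replicates are lacking, so every ratio compares libraries. Low genes such as Adm, P4ha2 and Pfkm could not be compared in most gates at this depth. Copies and free RNA limit Pgk1, Eno1, Gapdh and Vegfa.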
